A study of Homo sapiens with 28 samples.

Results

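A set of 956 genomic regions was studied at which 2 marks of active regulatory DNA appeared together when IMR-90 ER:Ras cells became senescent. They carried a peak of phosphorylated c-JUN (p-c-JUN) in both senescent (Sen) libraries and in neither proliferating (Pro) library, and they overlapped a peak of histone H3 lysine 27 acetylation (H3K27ac) in both Sen libraries numbered 1 and 2 and in neither Pro library. Regions with a FOXF1 peak in either Sen library were left out. The regions were thus selected on the p-c-JUN, H3K27ac and FOXF1 peaks of these 10 lists. Peaks on chromosomes 1 to 22 and X were joined wherever they shared 1 bp or more, which gave 106528 p-c-JUN regions over the Pro and Sen lists. Of these, 29856 (28.0%) were gained in Sen cells, and the 956 regions were 3.20% of that number. H3K27ac was gained at 5988 of 132822 regions (4.51%). These counts were set by the rule and are a description.

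IMR-90 cells are human fetal lung fibroblasts, and ER:Ras is an oncogenic Ras protein that 4-hydroxytamoxifen (4OHT) switches on. Per the labels' protocols, 4OHT was given at 100 nM for 6 days, and short interfering RNAs were transfected. Binding was profiled by CUT&RUN, in which an antibody directs a nuclease to cut the DNA around its target. The groups used here were Sen cells after knockdown of JUN family members (titled cJUN/JUND-KD), of FOXF1 and FOXF2 (siFOXF1/2), or of p300 and CBP, which are acetyltransferases (sip300/CBP), then Sen cells with a control siRNA, and last Pro cells with a control siRNA. Each had 2 libraries per antibody except H3K27ac in Sen cells, which had 4. Sen 3 and 4 belonged to the same deposit as the JUN knockdown, and the sip300/CBP experiment had 2 Sen libraries of its own. All groups share the same transgenic line. The labels conflict in places, since Pro and Sen samples carry identical tags for 4OHT treatment and for a senescent cell type, and the treatment tag of the JUN knockdown also names JUNB. p-c-JUN after JUN knockdown was not analysed here.

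c-JUN is a subunit of AP-1, a dimeric transcription factor of the JUN and FOS families. Its phosphorylation by stress kinases raises its activity, and AP-1 is known as a major organiser of enhancers in cells driven into senescence by oncogenes. H3K27ac is placed mainly by p300 and CBP and marks active enhancers and promoters. FOXF1 and FOXF2 are forkhead transcription factors of lung mesenchyme.

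The 28 peak lists held 133 to 93443 peaks, and mapped read numbers are unknown. A peak list records presence, not amount, so a region without a peak may still carry signal under the authors' threshold. H3K27ac lists had 74484 and 29606 peaks after JUN knockdown, against 48859 and 26694 in Sen 3 and 4. They had 84673 and 71746 peaks after siFOXF1/2, 84864 and 60862 in Sen 1 and 2, and 84304 and 89329 in Pro cells. FOXF1 lists had 186 and 133 peaks after siFOXF1/2, against 13603 and 40537 in Sen cells. They were also short after JUN knockdown, at 378 and 883 peaks, so a short FOXF1 list is no specific check of siFOXF1/2. The sip300/CBP lists were short, with 4186 and 1549 peaks against 8234 and 2046 in their own Sen libraries. The labels do not say whether replicates are separate cultures, and p-values therefore cover only the spread among these libraries, possibly a technical one. With 2 libraries against 2, the smallest p an exact two-sided permutation test allows is 0.33, so no such comparison could pass 0.05. Positions are in build hg19. The annotation used here was of another build, so regions are given by position, with no gene names or sequences, and the fibroblast identity of the cells was not checked against marker genes.

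The 956 regions had a median width of 495 bp, from 214 to 1416 bp. Fold enrichment over local background is the authors' value for each peak, and the p-c-JUN peaks had a median of 5.76 in Sen 1 (2.73 to 25.2) and 6.69 in Sen 2 (2.83 to 23.1). The H3K27ac peaks had medians of 3.81 in Sen 1 (1.89 to 7.94) and 3.88 in Sen 2 (1.93 to 7.19). For comparison, the medians over all gained p-c-JUN regions were 5.55 and 6.12 for p-c-JUN. Membership rested on weak peaks in part: the lowest of the 4 deciding −log10 q values had a median of 3.12 and was under 2 at 91 regions (9.52%). Just outside the rule were 743 regions with H3K27ac in 1 Pro list, 2162 with H3K27ac in 1 of the 2 Sen lists, and 955 that met every condition but had FOXF1 in 1 Sen list (712) or both (243). A further 10892 gained p-c-JUN regions had no H3K27ac in any of the 4 lists and no FOXF1.

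Within the regions, the p-c-JUN summits of Sen 1 and Sen 2 lay a median of 58 bp apart. The p-c-JUN summit of Sen 1 lay a median of 123 bp from the nearest H3K27ac summit of Sen 1 and 137 bp from that of Sen 2. The H3K27ac peaks that overlapped the regions had median widths of 476 and 403 bp in Sen 1 and 2, against 527 and 432 bp over the whole lists. Regions that gained p-c-JUN where H3K27ac was already in both Pro and both Sen lists had broader H3K27ac peaks, at 780 and 538 bp, as had gained regions with FOXF1, at 616 and 475 bp. H3K27ac gained without p-c-JUN had narrower ones, at 394 and 349 bp. That set was built from joined H3K27ac peaks that overlapped no p-c-JUN peak of Sen cells, the others from joined p-c-JUN peaks. Its widths are therefore not directly comparable with theirs.

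The spacing of the 956 regions is given without a comparison to randomly placed regions, so it does not show scatter or clustering. The median gap to the nearest other of them was 738 kb, and 71 (7.43%) had another within 50 kb. These formed 35 groups, of which 1, on chromosome 4 at 123667749 to 123728704, had 3 regions. By chromosome their number ran from 7 on chromosome 22 to 86 on chromosome 1, and their share of the gained p-c-JUN regions from 2.10% on chromosome 19 to 4.23% on chromosome 21.

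By the rule, none of the 956 regions overlapped an H3K27ac peak of Pro cells, whose lists held 84304 and 89329 peaks. How near randomly placed regions would lie was not computed, so the distances show no special nearness. The median distance to the nearest H3K27ac peak of either Pro list was 6.04 kb, 15.4% lay within 1 kb, 66.6% within 10 kb, and 95.6% within 50 kb. The 2194 regions that gained H3K27ac with no p-c-JUN or FOXF1 peak in Sen cells lay closer, at a median of 2.66 kb with 32.8% within 1 kb. Gained regions with FOXF1 lay at 7.05 kb. The nearest FOXF1 peak of Sen cells was a median of 10.5 kb from the 956 regions, and 48.3% had one within 10 kb. The nearest p-c-JUN peak of Pro cells was farther, at 15.2 kb. Regions are not replicates of a condition, so these distances are given without a test.

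**Figure D1:**
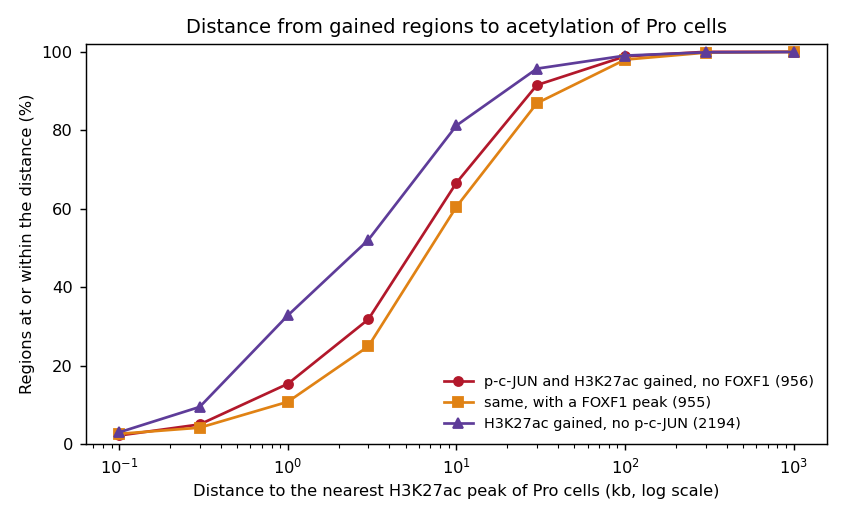
Cumulative share of regions (%) by distance to the nearest H3K27ac peak of either Pro list (kb, log scale), for the 956 regions, gained regions with FOXF1 (955) and H3K27ac gained without p-c-JUN (2194). At 10 kb the 956 regions reach 66.6%, between the other two curves.

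Single regions were ranked by −log10 q in each of the 4 deciding Sen lists, and those whose poorest rank was best are named first. On chromosome 16 at 12088356 to 12088793, p-c-JUN fold enrichment was 8.88 and 10.2 after siFOXF1/2, against 14.9 and 17.4 in Sen 1 and 2. H3K27ac there was 4.58 and 3.84 after siFOXF1/2, against 6.64 and 6.10 in Sen 1 and 2. No H3K27ac peak was called there in either JUN knockdown list, against 7.58 and 4.63 in Sen 3 and 4. This region thus held both marks in both siFOXF1/2 libraries, and it was among the 10 best ranked regions by the deciding Sen peaks. Of the regions with H3K27ac in both Sen 3 and 4 and in neither JUN knockdown list, it was among the 10 best ranked by the Sen 3 and 4 peaks.

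On chromosome 5 at 178820099 to 178821408, H3K27ac was in all 6 of the longer lists that the rule did not use. Fold enrichment was 5.65 and 3.89 after JUN knockdown and 4.64 and 5.32 after siFOXF1/2, against 3.28 and 5.35 in Sen 3 and 4. This was 1 of 9 regions (0.941%) with that pattern, against 1.05% of regions with FOXF1. Of the 146 regions that both Sen 3 and 4 held, 11 (7.53%) had a peak in both JUN knockdown lists. On chromosome 7 at 77012698 to 77013205, p-c-JUN was 16.3 and 17.3 after siFOXF1/2, against 17.4 and 19.6 in Sen 1 and 2. H3K27ac was 3.48 in JUN knockdown 1 and not called in JUN knockdown 2, against 6.82 and 5.03 in Sen 3 and 4.

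The first question was how often the acetylation chosen in Sen 1 and 2 was found in Sen libraries that the rule had not used. In Sen 3 and 4, 38.0% and 21.8% of the 956 regions had an H3K27ac peak. Both libraries held 146 of the regions (15.3%) and neither held 531 (55.5%). Fold enrichment where a peak was called was close to the first pair, with medians of 4.39 and 4.48. Among the 10892 gained p-c-JUN regions without H3K27ac the shares in Sen 3 and 4 were 3.85% and 1.81%, and among the 2340 gained p-c-JUN regions acetylated in both Pro and both Sen lists they were 62.0% and 38.2%. The 956 regions stood between these in each library. The 3 sets were defined by H3K27ac in the Pro lists and Sen 1 and 2, so selection favoured this order. Regions with FOXF1 were at 46.3% and 22.5%, and H3K27ac gained without p-c-JUN at 25.6% and 9.07%.

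**Figure D2:**
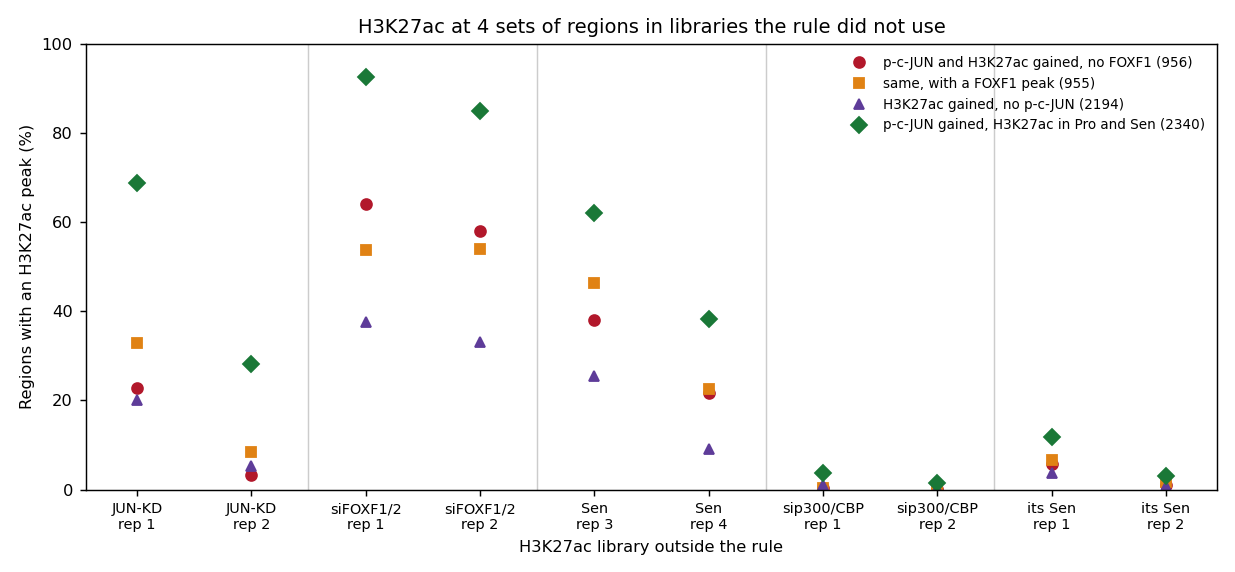
Share of regions with an H3K27ac peak (%) in each of the 10 H3K27ac libraries the rule did not use, for 4 sets of regions, with the number of regions in the legend and 1 point per library. The 956 regions are at 22.7% and 3.24% after JUN knockdown, 64.0% and 57.9% after siFOXF1/2, and 38.0% and 21.8% in Sen 3 and 4.

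Odds formed within a library set the regions against another set in the same list. Over the 10 libraries the log2 odds of an H3K27ac peak, the 956 regions over those acetylated in Pro and Sen cells, averaged −2.33 ± 0.302 (SE), and the 956 were lower in 10 of 10 libraries (exact two-sided sign-flip permutation test, p = 0.00195, the smallest it can give; 0.00586 after Benjamini-Hochberg adjustment over 3 sets). That set was chosen to hold H3K27ac in both Pro lists, and the 956 to lack it there. Selection on H3K27ac itself thus favoured this direction, and the p-value is no separate support for a difference. Against regions with FOXF1 the log2 odds value was −0.41 ± 0.187, with 2 of 10 libraries higher, and missed the threshold (exact permutation p = 0.0547, adjusted 0.0820). It changed with the setting in both directions: it was −0.53 without siFOXF1/2 library 1 (exact permutation p = 0.0117) and −0.49 without siFOXF1/2 library 2 (exact permutation p = 0.0391), but −0.29 with the FOXF1 set weighted by H3K27ac fold enrichment (exact permutation p = 0.180) and −0.07 with the compared lists cut to equal length (exact permutation p = 0.846). No difference from regions with FOXF1 was therefore established. Against H3K27ac gained without p-c-JUN it was 0.33 ± 0.338, with 7 of 10 higher (exact permutation p = 0.328, adjusted 0.328). With all lists cut to equal length that last value was 1.24 (exact permutation p = 0.00586), and over all alternatives it ran from 0.17 to 1.24 (exact permutation p from 0.00586 to 0.617). The 10 libraries include knockdowns and share Sen material, so they are not 10 independent cultures of 1 condition.

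**Figure D3:**
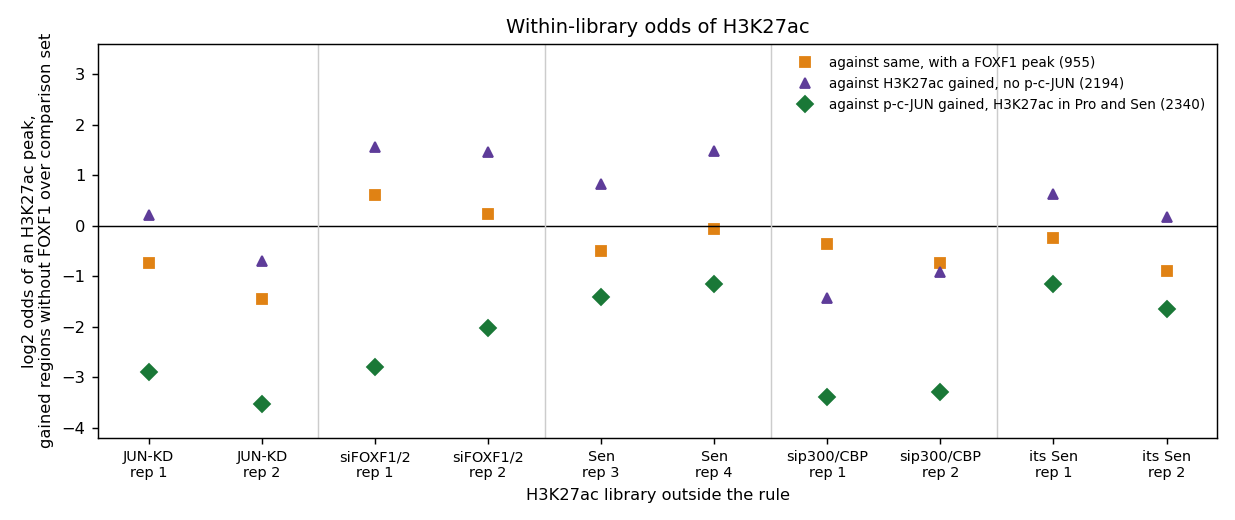
Log2 odds of an H3K27ac peak in the 956 gained regions without FOXF1 over each comparison set, within each of the 10 libraries, 1 point per library, with 0 meaning equal odds. Against regions acetylated in Pro and Sen cells every point lies below 0, from −3.53 to −1.15, and against regions with FOXF1 the 2 points above 0 are the siFOXF1/2 libraries.

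JUN knockdown addressed whether the acetylation of these regions was found when JUN family members were reduced. H3K27ac was called at 22.7% and 3.24% of the 956 regions after JUN knockdown, against 38.0% and 21.8% in Sen 3 and 4. Means were 13.0 ± 13.8% after JUN knockdown and 29.9 ± 11.5% in Sen 3 and 4 (SD, n = 2 each). The groups overlapped, since the first knockdown library lay above Sen 4, and the difference of −16.9 ± 12.7 points (SE) did not exceed the spread (exact two-sided permutation p = 0.667). It was −7.17 points without JUN knockdown 2 and −26.6 points without JUN knockdown 1. The knockdown lists were longer than the Sen lists on average, while the share of the 956 regions was lower.

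With all 4 lists cut to their best 26694 peaks, the groups no longer overlapped, at 5.02% and 2.82% after JUN knockdown against 19.8% and 21.8% in Sen 3 and 4 (exact two-sided permutation p = 0.33). The same lists gave 35.0% and 26.7% after JUN knockdown against 42.1% and 38.2% in Sen 3 and 4 for regions acetylated in Pro and Sen cells. For regions with FOXF1 they gave 8.90% and 7.75% after JUN knockdown against 23.0% and 22.5% in Sen 3 and 4. For H3K27ac gained without p-c-JUN they gave 5.10% and 4.60% after JUN knockdown against 10.9% and 9.07% in Sen 3 and 4. All 4 sets were thus lower in mean share after knockdown at equal list length.

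As log2 odds within each library, the 956 regions moved down against every comparison set. Knockdown minus Sen 3 and 4, the change was −1.94 ± 0.340 (SE) against regions acetylated in Pro and Sen cells, −1.40 ± 0.563 against H3K27ac gained without p-c-JUN, and −0.82 ± 0.417 against regions with FOXF1. In each of the 3 both knockdown libraries were below both Sen libraries (exact two-sided permutation p = 0.33 each). The last value was −0.46 without JUN knockdown 2 and −0.49 with lists of equal length, and the first was −1.10 with lists of equal length.

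Region by region, 84 of the 956 (8.79%) had H3K27ac in both Sen 3 and 4 and in neither JUN knockdown list, and 3 (0.314%) had the reverse. Over all 94711 H3K27ac regions of these lists, 2.74% were lost and 7.66% gained in this sense. A region can only be lost if both Sen lists hold it. Of the 146 that both held, 57.5% were in neither knockdown list and 7.53% in both, while 13.0% of all 19945 such regions were in neither. The share in neither was 56.0% of 166 regions with FOXF1, 61.3% of 137 that gained H3K27ac without p-c-JUN, and 14.1% of 773 acetylated in Pro and Sen cells. Among regions held by both Sen 3 and 4, the 956 thus stood beside the other gained sets, with or without p-c-JUN. This split reads the same 4 libraries as the shares, and no test across regions was made.

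Single regions illustrate absence after JUN knockdown. They were picked for H3K27ac in both Sen 3 and 4 and in neither JUN knockdown list, so they are no evidence of a loss. On chromosome 2 at 232939677 to 232940252, no H3K27ac peak was called in either JUN knockdown list, against fold enrichments of 6.34 and 6.80 in Sen 3 and 4. It lay 60.5 kb from the nearest H3K27ac peak of Pro cells. On chromosome 13 at 114977488 to 114978024, none was called after JUN knockdown, against 9.47 and 6.35 in Sen 3 and 4. That region kept both marks after siFOXF1/2, with H3K27ac at 5.42 and 4.23 and p-c-JUN at 6.99 and 8.19. On chromosome 22 at 24830091 to 24830768, none was called after JUN knockdown, against 6.13 and 5.43 in Sen 3 and 4, and siFOXF1/2 library 1 alone held the 2 marks, at 3.33 for H3K27ac and 4.55 for p-c-JUN.

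The strength of p-c-JUN in Sen cells did not order H3K27ac after JUN knockdown. From the lowest to the highest tertile of the 956 regions by mean p-c-JUN fold enrichment, H3K27ac was called at 22.9%, 20.1% and 25.1% in JUN knockdown 1, and at 2.82%, 2.20% and 4.70% in JUN knockdown 2. In Sen 3 the same tertiles were at 34.2%, 40.3% and 39.5%, and in Sen 4 at 15.7%, 25.5% and 24.1%.

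siFOXF1/2 addressed whether p-c-JUN and H3K27ac are still called when FOXF1 and FOXF2 are reduced, here at regions with no called FOXF1 peak in Sen cells. Sen 1 and 2 are at 100% by rule, so these levels are a description. p-c-JUN was called at 71.9% and 80.6% of the 956 regions after siFOXF1/2 (mean 76.3 ± 6.21%, SD, n = 2), and H3K27ac at 64.0% and 57.9%. The H3K27ac share depended on list length: its mean of 61.0% was 34.2% when all lists were cut to equal length and 20.6% when the compared lists alone were cut. In that last setting Sen 3 and 4, cut to the same 26694 peaks, were at 19.8% and 21.8%. The siFOXF1/2 mean thus lay between them. Both p-c-JUN lists held 638 regions (66.7%) and neither held 136 (14.2%). Over all 59347 p-c-JUN regions held by both Sen lists, 8.70% were in neither siFOXF1/2 list. For H3K27ac both lists held 450 regions (47.1%) and neither 240 (25.1%), against 11.8% in neither over all 45269 regions held by Sen 1 and 2. H3K27ac was in neither list at 33.3% of regions with FOXF1 and 52.1% of those that gained it without p-c-JUN. Of regions acetylated in Pro and Sen cells, 4.70% were in neither. The 956 regions were thus below the other gained sets.

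p-c-JUN of the 956 regions was found about as often as at the 2340 regions acetylated in Pro and Sen cells, which were at 73.4% and 81.8% (log2 odds −0.11 in both libraries). With all lists cut to equal length the direction turned, to a mean log2 odds of 0.60. It was found more often than at regions with FOXF1, at 61.6% and 75.0% (mean log2 odds 0.57, above 0 in 2 of 2 libraries, and 2.03 with all lists cut to equal length). Gained p-c-JUN regions without H3K27ac were at 68.6% and 76.3%. With 2 libraries, the smallest sign-flip p is 0.5. Stronger p-c-JUN peaks were found again more often: from the lowest to the highest tertile by Sen fold enrichment, the shares were 57.4%, 71.1% and 87.1% in siFOXF1/2 library 1, and 65.2%, 82.4% and 94.4% in library 2.

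For H3K27ac, log2 odds against regions with FOXF1 were 0.61 and 0.24 after siFOXF1/2, against −0.49 and −0.06 in Sen 3 and 4. The difference was 0.70 ± 0.285 (SE), and the groups did not overlap (exact two-sided permutation p = 0.33), but it was 0.44 with an overlap of 50% and 0.45 with a −log10 q of at least 5, where the groups overlapped. Against H3K27ac gained without p-c-JUN the difference was 0.36 ± 0.326 (exact two-sided permutation p = 0.667), with 0.04 without Sen 3 and 0.68 without Sen 4. Against regions acetylated in Pro and Sen cells it was −1.13 ± 0.407, with no overlap (exact two-sided permutation p = 0.33). That value was −0.43 with a summit within 500 bp, −0.60 with lists of equal length and −0.74 without siFOXF1/2 library 1. The siFOXF1/2 libraries belong to the first deposit and Sen 3 and 4 to the second, so deposit and knockdown cannot be told apart in this comparison. List lengths differ with it, at 84673 and 71746 peaks after siFOXF1/2 against 48859 and 26694 in Sen 3 and 4.

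The 2 marks tended to remain at the same regions, and they also went together in the comparison sets, as given below. Where both siFOXF1/2 lists held p-c-JUN, H3K27ac was called at 73.7% and 67.6% of the 638 regions in the siFOXF1/2 libraries. Where 1 list held p-c-JUN, it was called at 51.1% and 44.5% of 182 regions. Where neither did, it was called at 36.0% and 30.9% of 136. The same 3 classes differed far less in Sen 3, at 39.7%, 34.6% and 34.6%, and in Sen 4, at 24.3%, 15.9% and 17.6%.

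As log2 odds, p-c-JUN in both lists over p-c-JUN in neither, this was 2.30 and 2.21 in the siFOXF1/2 libraries, against 0.31 and 0.56 in Sen 3 and 4. The difference was 1.82 ± 0.135 (SE), with no overlap (exact two-sided permutation p = 0.33). The JUN knockdown libraries gave 0.17 and 0.17. H3K27ac and p-c-JUN were called from separate libraries, but both sets came from siFOXF1/2 cells of the same deposit. Regions with strong p-c-JUN were also somewhat more often acetylated after siFOXF1/2, at 66.5% and 62.7% in the highest tertile against 60.5% and 51.7% in the lowest. At regions with FOXF1, H3K27ac in siFOXF1/2 libraries 1 and 2 was at 69.9% and 67.0% with p-c-JUN in both lists. With p-c-JUN in neither list it was at 21.8% and 28.2%. For H3K27ac gained without p-c-JUN it was at 79.6% and 61.1% (54 regions) against 34.5% and 30.7%. Regions acetylated in Pro and Sen cells were at 94.6% and 88.0% against 84.2% and 70.5%. The split was thus not special to the regions studied.

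**Figure D4:**
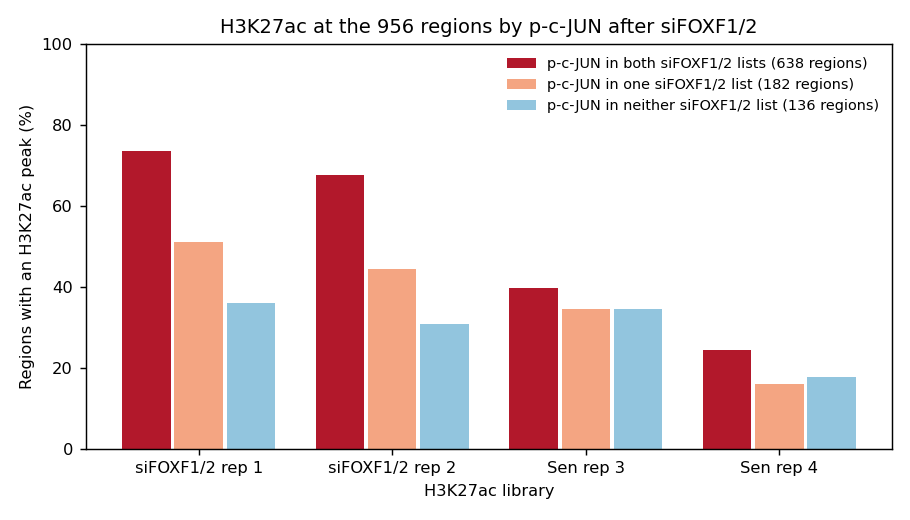
Share of the 956 regions with an H3K27ac peak (%) in the siFOXF1/2 libraries and in Sen 3 and 4, split by whether p-c-JUN was called in both (638 regions), 1 (182) or neither (136) of the siFOXF1/2 lists, with 1 bar per library and class. The classes range from 36.0% to 73.7% in siFOXF1/2 library 1 and from 34.6% to 39.7% in Sen 3.

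Counted by region, 370 (38.7%) held both marks in all 4 siFOXF1/2 lists. The share was 58.2% of regions acetylated in Pro and Sen cells and 31.1% of those with FOXF1. A further 107 regions (11.2%) held p-c-JUN in both lists and H3K27ac in neither, while 24 (2.51%) had the reverse. These shares were 9.84% and 3.14% of regions with FOXF1, and 2.26% and 8.42% of those acetylated in Pro and Sen cells. Neither mark was called in any of the 4 lists at 69 regions (7.22%), against 13.7% of regions with FOXF1 and 1.58% of those acetylated in Pro and Sen cells.

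Among those 69, the region on chromosome 17 at 12883421 to 12883883 had no peak after siFOXF1/2, against p-c-JUN at 8.60 and 7.78 and H3K27ac at 5.57 and 4.98 in Sen 1 and 2. Its nearest FOXF1 peak was 37.3 kb away, and no H3K27ac was called there in Sen 3 or 4. The region on chromosome 2 at 72177769 to 72178356 likewise had no peak after siFOXF1/2, against p-c-JUN at 7.65 and 9.00 and H3K27ac at 4.46 and 5.02 in Sen 1 and 2. It did have H3K27ac in JUN knockdown 1 at 3.80, against 5.01 and 4.83 in Sen 3 and 4.

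Knockdown of p300 and CBP tested the enzymes that write the mark. H3K27ac was called at 3 and 1 of the 956 regions after sip300/CBP (0.314%, 95% Wilson interval 0.107 to 0.919, and 0.105%, 0.0185 to 0.590), against 54 and 9 regions in its own Sen libraries (5.65%, 4.35 to 7.30, and 0.941%, 0.496 to 1.78). These intervals cover counting error only. The difference of −3.09 ± 2.36 points (SE) had no overlap between groups (exact two-sided permutation p = 0.33). It was −0.73 points without the first of these Sen libraries and −5.44 without the second, and −0.32 with a −log10 q of at least 5, where the groups overlapped (exact two-sided permutation p = 1). Of the 54 regions in the first Sen library, 53 (98.1%) were in neither sip300/CBP list, against 7331 of all 8218 regions in that library (89.2%). The share was 100% of 63 regions with FOXF1, 100% of 82 that gained H3K27ac without p-c-JUN and 88.1% of 278 acetylated in Pro and Sen cells, so the 956 regions did not stand apart from the other gained sets. Over all regions of these lists, 374 of 565 (66.2%) held by both Sen lists were in neither sip300/CBP list, and both Sen lists held 2 of the 956, each in neither sip300/CBP list. Because these Sen lists were short, H3K27ac at most of the 956 regions was not detectable in them.

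Over the 6 longer H3K27ac lists that the rule did not use, 155 of the 956 regions (16.2%) had no peak and 9 (0.941%) had one in all 6. The most common number was 2 lists, at 240 regions (25.1%). Regions with FOXF1 were close to the 956, with 17.6% in none, 22.1% in 2 and 1.05% in all 6. H3K27ac gained without p-c-JUN had no peak in any of the 6 at 36.6% of regions, and regions acetylated in Pro and Sen cells at 1.92%, with 14.0% of the acetylated set in all 6. FOXF1 was called at none of the 956 regions in the lists after JUN knockdown, with 378 and 883 peaks, nor in the 2 short lists after siFOXF1/2. Of the 955 regions with FOXF1, 1 had it in each JUN knockdown list, and 1 and 0 in the siFOXF1/2 lists. The rule had left out FOXF1 of Sen cells, and lists this short cannot set the 956 regions apart.

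**Figure D5:**
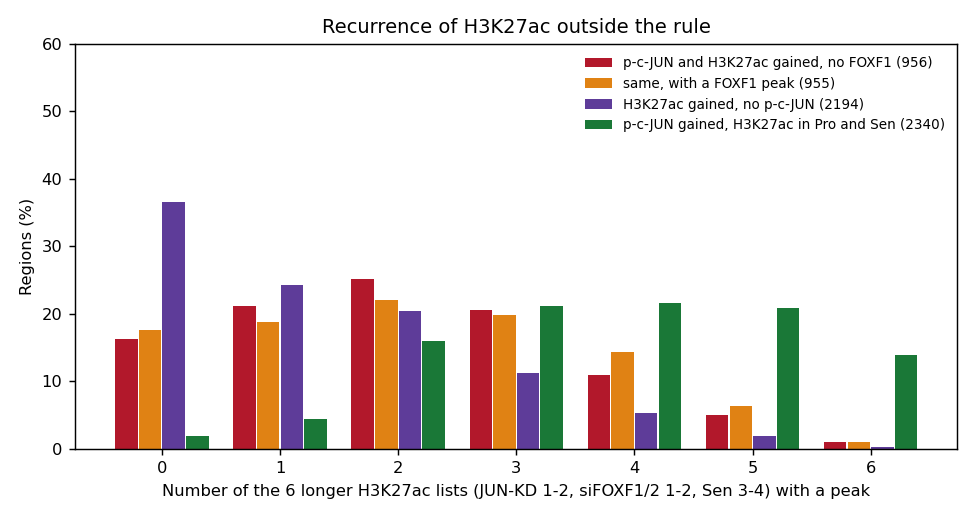
Share of regions (%) in each of the 4 sets by the number of the 6 longer H3K27ac lists outside the rule (JUN knockdown 1 and 2, siFOXF1/2 1 and 2, Sen 3 and 4) that held a peak, with bars starting at 0. The 956 regions are most often in 2 lists (25.1%), and 16.2% are in none.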

How the data were processed

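The authors deposited 1 peak list in narrowPeak format for each of 28 CUT&RUN libraries, not pooled. Bowtie2 2.3.4.1, SAMtools 1.9, deepTools 3.1.1, MACS2 3.0.0 and build hg19 are given, without settings, per the submitters' processing notes. Yeast spike-in DNA was added per the labels' protocols, and its use in processing, the control library and the number of mapped reads are not given in the sources used here. Each deposited peak has the authors' display score, fold enrichment over local background, −log10 p, −log10 q and summit offset. Fold and −log10 q served to rank, filter and characterise peaks inside each list, and the score and p were not used.

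The 956 regions, comparison sets and tests were chosen with earlier results of these data known. Of 1123812 peaks, 475 (0.0423%) outside chromosomes 1 to 22 and X were left out. Presence meant an overlap of 1 bp, and a region's value was that of its peak with the highest −log10 q. Groups came from sample titles. Shares were compared over libraries by exact two-sided permutation tests (Python 3.11.15, numpy 2.4.6, pandas 2.3.3, scipy 1.17.1), and log2 odds had 0.5 added to each cell. The code was tested on simulated lists and recovered 100% of 5800 planted regions. Comparison sets were H3K27ac gained without p-c-JUN or FOXF1 in Sen cells, p-c-JUN gained without FOXF1 where both Pro and both Sen lists held H3K27ac, and the same rule with a FOXF1 peak in either Sen list. Named regions were 10 per rule, ranked by their worst −log10 q rank, for the deciding Sen lists, for those lost after JUN knockdown and for those with no mark after siFOXF1/2, with a selection of each printed. Gene lists, motifs and cell type markers were not used here because the annotation was of another build. Replicate numbers were shared by sip300/CBP and its Sen libraries, with a correlation of −0.172 between same-numbered deviations, so they were not treated as pairs. Alternatives tried were a −log10 q of at least 5, an overlap of 50%, equal list lengths, a summit within 500 bp, weighting over 5 strata and leaving out each library.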

Additional observations from a re-analysis of the deposited data

How the results depend on the processing

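The number of regions depended most on the lists. It was 465 with a −log10 q of at least 5, 405 with lists of equal length and 146 when all 4 H3K27ac Sen lists had to hold a peak, and 981 to 2511 when 1 deciding library was left out, with 1586 without p-c-JUN Sen 1, 1563 without H3K27ac Sen 1, 2511 without H3K27ac Sen 2 and 1643 without FOXF1 Sen 2. With equal lengths throughout, siFOXF1/2 shares were 34.2% for H3K27ac and 97.7% for p-c-JUN, the p-c-JUN log2 odds against regions acetylated in Pro and Sen cells turned to 0.60, and the odds over libraries against H3K27ac gained without p-c-JUN were 1.24 (exact permutation p = 0.00586). The cause was not tested, and fewer regions met the rule there. With only the outcome lists cut, H3K27ac after siFOXF1/2 was 20.6%, against 19.8% and 21.8% in Sen 3 and 4 at the same length. That alternative was chosen after seeing the data and is also behind the equal-length JUN knockdown shares. Against regions with FOXF1 the odds over libraries were −0.42 (exact permutation p = 0.0371) with a summit within 500 bp and −0.53 to −0.30 without 1 library, but −0.07 (exact permutation p = 0.846) with the outcome lists cut, so this result is not stable. Of 164 alternative differences and log2 odds, 163 kept their direction. Most come from tests that could not pass 0.05 at any value, so their side of the threshold says nothing about stability. Of the 51 over 9 or 10 libraries, which could pass, 47 kept their side, among them all 17 against regions acetylated in Pro and Sen cells (−2.85 to −1.51, exact permutation p from 0.00195 to 0.00781). Selection on H3K27ac in Pro cells favoured that direction in every setting. The split by p-c-JUN after siFOXF1/2 was added after seeing the data and ranged from 1.69 to 1.95 without 1 library. With the replicate block, the sip300/CBP difference was −3.09 points (exact sign-flip permutation p = 0.5, the smallest possible), and the crossed pairing gave the same value. No paired analysis was possible for JUN knockdown or siFOXF1/2 against Sen 3 and 4 because they share no replicate number. The planned motif alternatives were not run. The short sip300/CBP lists and the unknown read depth limit what absence of a peak can show.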

Other observations

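FOXF1 of Pro cells, which the rule did not use, was called at 2 of the 956 regions (0.209%), both in Pro library 2 alone. In that library the share was 2.01% of regions acetylated in Pro and Sen cells. It was 1.88% of gained regions with FOXF1 in Sen cells and 0.137% of those that gained H3K27ac without p-c-JUN. The 2 regions are given by position only. These 2 of the 956 lay on chromosome 3 at 64487831 to 64488336, with a fold enrichment of 10.9, and on chromosome 16 at 55675472 to 55675878, with 7.73. Neither had a FOXF1 peak in Sen cells, as the rule required, nor in the shorter list of Pro library 1.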
